A study of Mus musculus with 10 samples.

Results

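Voltage-gated potassium channel genes were described here in nuclei from the mouse paraventricular thalamus (PVT) and the tissue around it. Members were the gene symbols of the deposited count matrix that begin with Kcna, Kcnb, Kcnc, Kcnd, Kcnf, Kcng, Kcnh, Kcnq, Kcns or Kcnv followed by a digit and that held 50 or more unique molecular identifiers (UMIs, each standing for 1 captured RNA molecule) over all nuclei. Of 33502 genes in the matrix, 42 symbols matched and 39 were members, of which 37 encode channel subunits and 2, Kcnq1ot1 and Kcnd3os, are antisense non-coding RNAs. Kcnv1 (48 UMIs), Kcna10 (25 UMIs) and Kcna7 (1 UMI) fell below the limit, and the members nearest to it were Kcns1 (52 UMIs), Kcnv2 (69 UMIs) and Kcnh3 (99 UMIs).

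Nuclei came from tissue punches of C57BL/6J mice aged 12 weeks, and the study's methods describe 4 mice pooled for each sample. The 10 libraries are the samples, and tests were run over them: libraries 1 to 4, whose titles give no sex and whose nuclei are marked male in the deposited metadata, and libraries 5 to 10, titled female. All mice were of the same strain, and no treatment is given in the labels. The matrix held 20503 nuclei in 16 clusters named by the authors, 8 of them neuronal with 10410 nuclei, and the other clusters made up astrocytes, oligodendrocytes, oligodendrocyte precursor cells (OPCs), microglia, ependymal cells, endothelial cells and fibroblasts.

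Voltage-gated potassium channels open when the membrane is depolarised and let potassium leave the cell, which ends the action potential and sets how soon and how often the next one can follow. Most are assembled from 4 pore-forming subunits of 1 family: Kv1 (Kcna), Kv2 (Kcnb), Kv3 (Kcnc), Kv4 (Kcnd), the Eag, Erg and Elk channels (Kcnh) and Kv7 (Kcnq). The Kcnf, Kcng, Kcns and Kcnv genes encode silent subunits, which pass no current alone and modify Kv2 channels. In thalamic neurons these channels shape the switch between tonic and burst firing, and glial cells use potassium channels to set a negative resting potential.

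Total UMIs ranged from 5119927 to 55956635 per library. In the deposited matrix the 13 mitochondrial genes had 0 UMIs in libraries 1 to 4 and 562659 in libraries 5 to 10. The median deposited percent of mitochondrial counts was 0.1226 to 1.2966 in libraries 1 to 4, so the 0 holds for the matrix only. For 1555 genes 50 or more UMIs fell in libraries 1 to 4 and none in libraries 5 to 10. For 509 genes it was the reverse. The library set, the sex given for the mice and any difference in counting cannot be told apart, and the cause was not tested. Among the members Kcnq1 differed most between the sets, at 6.36 CPM ± 3.03 (SD, n = 4) in the neurons of libraries 1 to 4 and 311 CPM ± 59.1 (SD, n = 6) in those of libraries 5 to 10. Summed levels of 8 neuronal marker genes in the other cell types, as a share of their level in neurons of the same library, were highest in library 4 in 7 of 7 cell types. That share reached 53.0% in the 18 OPC nuclei of library 4, against 6.45 to 19.9% in the OPCs of the other 8 libraries. All 8 of these markers had UMIs in every cell type, and the part of neuronal RNA in the levels of the other cell types was not tested.

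The upstream sequence of 4 members is shown first, because several results turn on them: Kcna6 (high in oligodendrocytes), Kcnh5 and Kcnh8 (high in OPCs and in Nwd2-positive neurons) and Kcng4 (high in Nwd2-positive neurons). Each line gives the 250 bases before the gene's start, 5′ to 3′ on the gene's strand, from RefSeq on GRCm38.p6, the same assembly as the mm10 build in the submitters' processing notes. Capitals mark a match, on either strand, to 1 of 3 motifs of core promoters. These were TATAAA, known as the TATA box, then GGGCGG, the motif called the GC box, and lastly CCAAT. Of the 39 members 25 had an entry in that table.
Kcna6, chr6:126740675-126740924, minus strand: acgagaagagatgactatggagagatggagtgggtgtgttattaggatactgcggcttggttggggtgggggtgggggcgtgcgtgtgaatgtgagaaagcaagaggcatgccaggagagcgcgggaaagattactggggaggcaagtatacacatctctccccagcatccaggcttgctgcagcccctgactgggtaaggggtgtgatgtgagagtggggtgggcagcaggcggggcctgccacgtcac
Kcnh5, chr12:75177333-75177582, minus strand: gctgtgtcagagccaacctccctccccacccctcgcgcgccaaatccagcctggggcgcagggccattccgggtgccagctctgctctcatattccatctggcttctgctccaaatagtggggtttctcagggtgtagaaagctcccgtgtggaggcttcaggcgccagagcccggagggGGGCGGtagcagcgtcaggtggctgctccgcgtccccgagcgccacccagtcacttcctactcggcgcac
Kcnh8, chr17:52602459-52602708, plus strand: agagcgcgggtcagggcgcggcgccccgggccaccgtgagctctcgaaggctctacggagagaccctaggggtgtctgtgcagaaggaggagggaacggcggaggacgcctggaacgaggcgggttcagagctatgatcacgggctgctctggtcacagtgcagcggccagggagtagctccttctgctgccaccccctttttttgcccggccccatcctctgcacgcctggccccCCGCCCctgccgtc
Kcng4, chr8:119635681-119635930, minus strand: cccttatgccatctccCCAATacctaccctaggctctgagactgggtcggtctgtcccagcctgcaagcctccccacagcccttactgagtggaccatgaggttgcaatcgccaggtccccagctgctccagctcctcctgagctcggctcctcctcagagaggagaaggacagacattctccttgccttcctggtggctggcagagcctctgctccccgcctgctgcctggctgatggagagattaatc

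None of the 4 windows held TATAAA, which 12.4% of 32851 RefSeq promoter windows of the same length hold. Kcnh5 and Kcnh8 each held 1 GC box, which 32.7% of windows hold, and Kcng4 held 1 CCAAT motif, which 33.8% hold. CpG dinucleotides numbered 20 in the Kcnh8 window, 16 in that of Kcnh5, 8 in that of Kcna6 and 4 in that of Kcng4, against a median of 6 over all windows. Kcna6 lies on chromosome 6 (126708329 to 126740674, minus strand) beside Kcna1 (126640397 to 126646384) and Kcna5 (126532551 to 126535412), all on the same strand.

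Members were compared between cell types on UMIs summed per library and cell type, as the log2 fold between 1 cell type and the average of the other 7 on the log scale, with the library as a block and edgeR's quasi-likelihood test across all genes. A member was called where the Benjamini-Hochberg adjusted p was under 0.05 and the log2 fold was beyond 0.5 in either direction. The authors clustered these same nuclei on all genes, so the tests are no independent evidence that the cell types exist. They give the size of a difference against its spread between libraries that is left after the library block. Levels are given as CPM, a gene's UMIs scaled by edgeR to the depth of each sum after TMM normalisation, and a gene's level is compared between cells and not with other genes, except for Kcnq1 and Kcnq1ot1, which share a locus. In sums, a lower level can come from fewer expressing nuclei or from less RNA per nucleus, which cannot be told apart.

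In neurons 19 of 20 members tested were called higher and 0 lower, where 29.7% of 9789 genes were called higher, and the median log2 fold was 2.35 over the members and 0.02 over all genes tested. The other 19 members did not pass the low-count filter in this comparison. That filter took all sums together, so a member high in neurons alone could pass it through the neuronal sums. Kcna4 averaged 81.3 CPM in neurons and at most 15.4 CPM in any other cell type, and Kcnc1 99.97 and 32.0 CPM. Their calls are therefore no separate support for the count. In microglia 0 members were called higher (22.8% of all genes) and 16 lower (27.4%). Neurons were the cell type with the highest mean level for 21 of 39 members, oligodendrocytes for 5 and OPCs for 4. Astrocytes and ependymal cells were highest for 3 each, and endothelial cells, fibroblasts and microglia for 1 each. The same shares over all genes were not computed, so these counts cannot be read as a trait of the family. They include Kcna3, Kcng1 and Kcnv2 for neurons, Kcng3 and Kcns1 for oligodendrocytes and Kcna5 for endothelial cells. The levels of those members were too low for a difference between cells to be read.

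**Figure D1:**
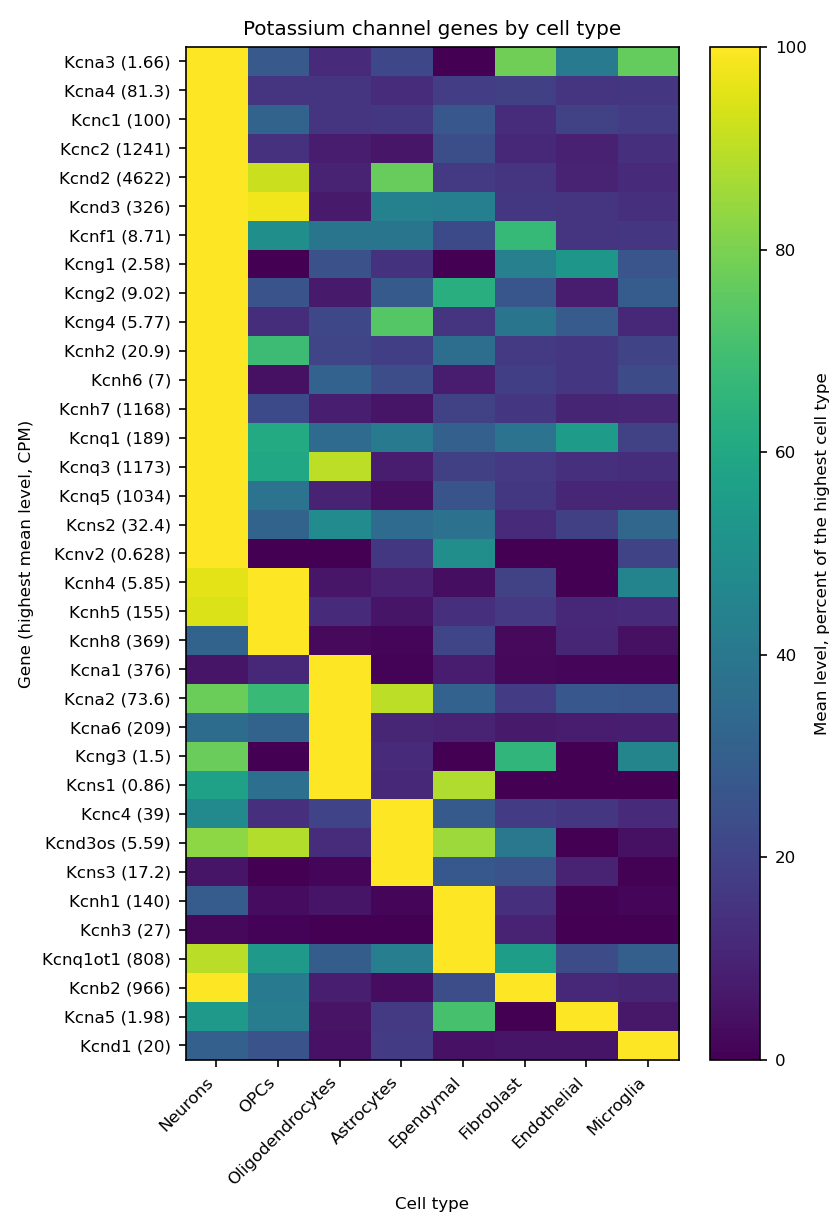
Mean level of 35 genes in the 8 cell types as a percent of its highest cell type (colour), with the highest mean level in CPM in parentheses. Genes are grouped by the cell type in which they were highest, and neurons form the largest group.

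Kcnh7, Kcnc2 and Kcnq5 had the largest neuronal folds. Kcnc2 encodes a Kv3 subunit that repolarises the membrane within the action potential and so permits fast firing, and its level in neurons was between 916 and 1646 CPM with a median of 1264, against a median of at most 237 CPM in any other cell type. The ranges did not overlap. The log2 fold was 3.49 (SE 0.16, adjusted p = 1.06e-31), and Kcnc2 was higher in 10 of 10 libraries. Kcnh7, which encodes an Erg channel that resists repetitive firing, was at 818 to 1720 CPM in neurons (median 1180), with a log2 fold of 3.50 (SE 0.21, adjusted p = 6.41e-25). The highest level outside neurons was 1283 CPM in the OPCs of library 4, within the neuronal range, and the median over the OPC libraries was 106 CPM. Kcnq5, a Kv7 subunit of the slow M current, was at 812 to 1538 CPM in neurons (median 999), with a log2 fold of 3.22 (SE 0.17, adjusted p = 7.98e-28).

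Oligodendrocytes stood apart for Kcna1 and Kcna6, which encode low-threshold Kv1 channels known from axons and nodal regions, while the Kv1 gene Kcna4 was not called there and Kcna3 and Kcna5 were not tested. Their 4 members called higher (20.8% of all genes) were Kcna1, Kcna6, Kcnq3 and Kcna2, and 13 were called lower (26.0% of all genes). Kcna1 was at 279 to 468 CPM in oligodendrocytes (median 364), and no library of any other cell type exceeded 77.6 CPM, so the ranges did not overlap. The log2 fold was 5.00 (SE 0.12, adjusted p = 7.45e-49), and it was at 4.88 or above with any 1 library left out. The next highest mean was 41.8 CPM, in OPCs, so Kcna1 could pass the low-count filter through the oligodendrocyte sums. Its call there adds no support beyond these levels. In neurons Kcna1 was at 15.7 to 30.3 CPM (median 21.1), and its log2 fold of 0.27 (SE 0.18, adjusted p = 0.168) was not called. Among the alternatives run, it was called higher in neurons when library 4 was left out, at 0.61, and in libraries 5 to 10 alone, at 0.73.

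Kcna6 lies next to Kcna1 and was at 154 to 275 CPM in oligodendrocytes (median 209), against 65.5 to 89.0 CPM in neurons and at most 92.7 CPM in any other cell type. Its log2 fold was 2.90 (SE 0.13, adjusted p = 7.69e-32). Kcnq3, a Kv7 subunit of the M current, was at 693 to 1722 CPM in oligodendrocytes (median 977), which overlapped neurons at 844 to 1779 CPM. Its log2 fold in oligodendrocytes was 2.09 (SE 0.18, adjusted p = 6.98e-17). Kcna2 was at 36.6 to 117 CPM in oligodendrocytes (median 73.4), which overlapped the 52.6 to 84.8 CPM of astrocytes and the 46.5 to 77.1 CPM of neurons. Among the 13 called lower, Kcnd3 had the largest fold at -2.26 (SE 0.24, adjusted p = 3.31e-13), followed by Kcnh8 at -1.76 and Kcnd2 at -1.53.

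OPCs had 12 members called higher (19.2% of all genes) and 0 lower (14.7%), and the count higher was 13 without library 4. Kcnh8, an Elk channel gene, was at 187 to 452 CPM in OPCs (median 380) against 73.9 to 171 CPM in neurons and 0 to 19.5 CPM in oligodendrocytes. The lowest of these OPC values was that of library 4, and no OPC library overlapped the neurons. The log2 fold was 4.04 (SE 0.19, adjusted p = 1.35e-30) with all libraries and 4.26 without library 4. Kcnh5, which encodes an Eag channel, was at 117 to 215 CPM in OPCs (median 142), a range that overlapped the 126 to 173 CPM of neurons, with a log2 fold of 2.67 (SE 0.20, adjusted p = 5.21e-19). Kcnd2, the main Kv4 subunit of the transient A-type current in many neurons, was at 3042 to 5574 CPM in OPCs (median 4246), with a log2 fold of 2.45 (SE 0.26, adjusted p = 3.60e-13). Kcna1 was also called higher in OPCs, at 1.33 (SE 0.24, adjusted p = 4.53e-06), though in 8 of 9 libraries its level lay below the arithmetic mean of the other cell types, which the oligodendrocytes dominate.

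**Figure D2:**
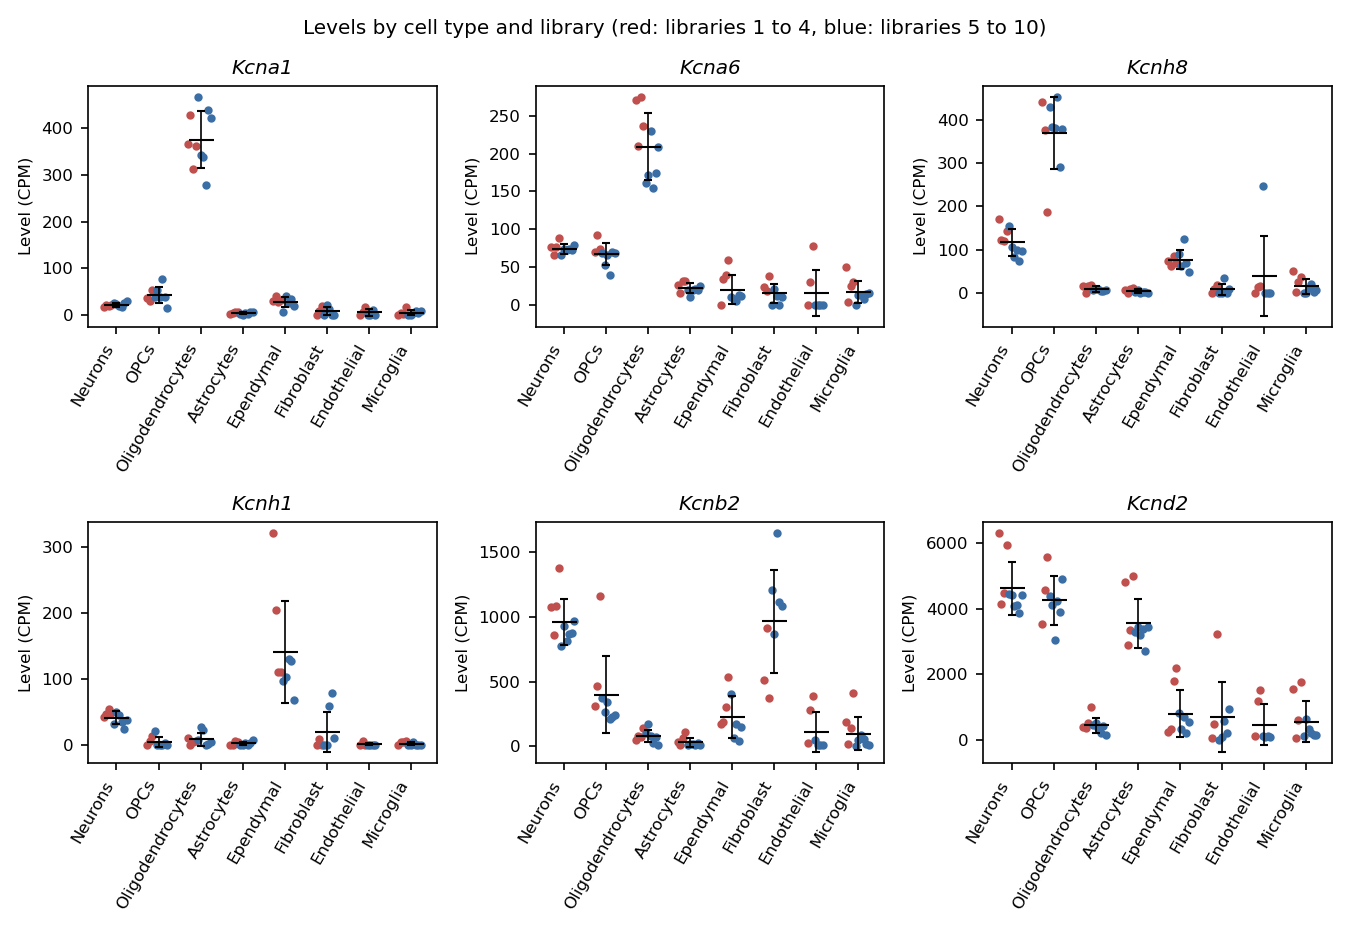
Level in CPM of 6 channel genes in the 8 cell types, 1 point per library (red, libraries 1 to 4; blue, libraries 5 to 10), with bars at the mean and 1 SD. Kcna1 in oligodendrocytes (279 to 468 CPM) and Kcnh8 in OPCs (187 to 452 CPM) lay above every other cell type except for 1 endothelial sum of Kcnh8 at 247 CPM.

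Astrocytes had 4 members called higher (21.4% of all genes) and 13 lower (19.8%). Kcnd2 was at 2722 to 4987 CPM in astrocytes (median 3371), which overlapped neurons at 3883 to 6295 CPM, and its log2 fold was 2.06 (SE 0.25, adjusted p = 2.32e-11). Kcna2 followed at 1.05 (SE 0.17, adjusted p = 1.05e-07), and Kcnd3 was also called higher. The largest folds downward were those of Kcnb2 at -3.07 (SE 0.31, adjusted p = 2.96e-14), Kcnh8 at -2.65 and Kcna1 at -2.38. The low-count members Kcnc4, Kcns3 and Kcnd3os, which did not pass the filter, were highest here. Kcnc4, a Kv3 gene, was at 27.6 to 58.9 CPM in astrocytes (median 36.6) against 14.6 to 22.5 CPM in neurons, and the silent subunit gene Kcns3 was at 11.7 to 26.5 CPM (median 15.0) against 0 to 1.87 CPM in neurons. The antisense Kcnd3os was at 5.59 CPM on average.

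Ependymal cells, the ciliated lining of the ventricle, had 8 members called higher (26.7% of all genes) and 3 lower (19.2%). Kcnh1, the founding Eag channel gene, was at 67.3 to 320 CPM in ependymal cells (median 110), against 24.4 to 53.7 CPM in neurons, with no overlap. The log2 fold was 4.53 (SE 0.26, adjusted p = 3.42e-26) and stayed between 4.28 and 5.28 with any 1 library left out. The next highest mean was 41.1 CPM, in neurons, so Kcnh1 could pass the low-count filter through the ependymal sums. Its call there adds no support beyond these levels. Kcnh8 at 1.37 (SE 0.26, adjusted p = 7.93e-06) and the non-coding Kcnq1ot1 at 1.18 (SE 0.14, adjusted p = 6.34e-12) followed, and Kcnh8 exceeded the arithmetic mean of the other cell types in 5 of 9 libraries. Ependymal Kcna1 was called higher at 0.73 (SE 0.26, adjusted p = 0.0163), yet it lay below that arithmetic mean in 9 of 9 libraries. That call was lost without library 2 (0.63) or 9 (0.67), with no low-count filter (0.68), with sums of 30 or more nuclei (0.66) and at 1000 UMIs per nucleus (0.19). Kcnh3, an Elk gene that did not pass the filter, was at 6.96 to 58.4 CPM in ependymal cells (median 24.8) and at no more than 1.14 CPM in neurons.

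Fibroblasts had 1 member called higher (11.2% of all genes) and 4 lower (9.12%). The member called higher was Kcnb2, a Kv2 delayed rectifier gene, at 375 to 1646 CPM in fibroblasts (median 1002), which overlapped the 777 to 1380 CPM of neurons. Its log2 fold was 2.84 (SE 0.27, adjusted p = 8.73e-15), and the lowest fibroblast value was again that of library 4. Endothelial cells had 1 member called higher (18.4% of all genes), Kcnq1, and among those called lower Kcnd2 fell furthest, by 2.04 (SE 0.42, adjusted p = 4.87e-05). Endothelial Kcnd2 was at -0.84 with sums of 30 or more nuclei and at -1.27 in libraries 1 to 4 alone, not called in either. Microglia held the Kv4 gene Kcnd1, which did not pass the filter, at 6.83 to 35.2 CPM (median 20.7) against 3.65 to 8.54 CPM in neurons.

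Kcnq1 was read within each library set. It encodes the Kv7 subunit of cardiac and epithelial potassium currents, and the antisense gene Kcnq1ot1 (chr7:143203458-143296549, minus strand) lies wholly inside it (chr7:143106362-143427042, plus strand). In neurons Kcnq1 was at 3.89 to 10.5 CPM in libraries 1 to 4 and 232 to 373 CPM in libraries 5 to 10. Endothelial cells held 45.8 to 68.9 CPM in 3 of the first set and 59.9 to 205 CPM in 4 of the second. Endothelial cells thus lay above neurons in the first set and below them in the second. The pooled endothelial log2 fold of 0.96 (SE 0.35, adjusted p = 0.0248) was 5.52 (SE 0.66, adjusted p = 9.88e-08) in libraries 1 to 4 alone and 0.18 and not called in libraries 5 to 10 alone, and the call was lost without library 1 (0.78), 3 (0.65), 4 (0.72) or 9 (0.96). As a share of Kcnq1ot1 in the same neurons, Kcnq1 was 0.77% ± 0.22 (SD, n = 4) in libraries 1 to 4 and 45.8% ± 6.73 (SD, n = 6) in libraries 5 to 10. Kcnq1ot1 itself was at 725 CPM ± 125 (SD, n = 10) in neurons, where its log2 fold was 1.09 (SE 0.12, adjusted p = 1.53e-12).

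The neurons were next split by 1 gene at a time. Each of 10213 neuron nuclei was thinned to 2000 UMIs, 197 shallower nuclei were left out, and a nucleus was positive for a gene with 1 or more UMI of it among the 2000 and negative with none. UMIs of all other genes were then summed per library and side. Col12a1, Cadps2, Npsr1, Adarb2, Gad2 and Nwd2 mark neuron groups in and around the PVT. Adarb2 marks nuclei with little C1ql3, Gad2 encodes a GABA-synthesis enzyme, and Nwd2 marks nuclei with Tac2 and Pou4f1, genes known from the medial habenula. Of Gad2-positive nuclei 47.4% lay in neuron cluster 5, 17.4% in cluster 1 and 16.2% in cluster 4. On that side Gad1 was higher in 8 of 8 libraries, Slc32a1 in 6 of 8 and Gpr101 in 5 of 8. A negative nucleus may have missed its UMI, so the sides are mixtures, and a nucleus may be positive for several genes. Of Nwd2-positive nuclei 67.3% were also Cadps2-positive, and 34.6% of Cadps2-positive nuclei were Nwd2-positive.

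Over the 6 splits, 31 members passed the filter in at least 1. The 4 tested and never called were Kcnd1, Kcnd3os, Kcnq1 and Kcnq1ot1. Among the members, Kcnh1 and Kcnc2 were called most widely: Kcnh1 in 6 of 6 splits, 3 in each direction, and Kcnc2 in 5 of 6, higher in 1 and lower in 4. The share of all genes called in as many splits was not computed. The splits divide the same nuclei and their positive sides overlap, so they are not separate tests.

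**Figure D3:**
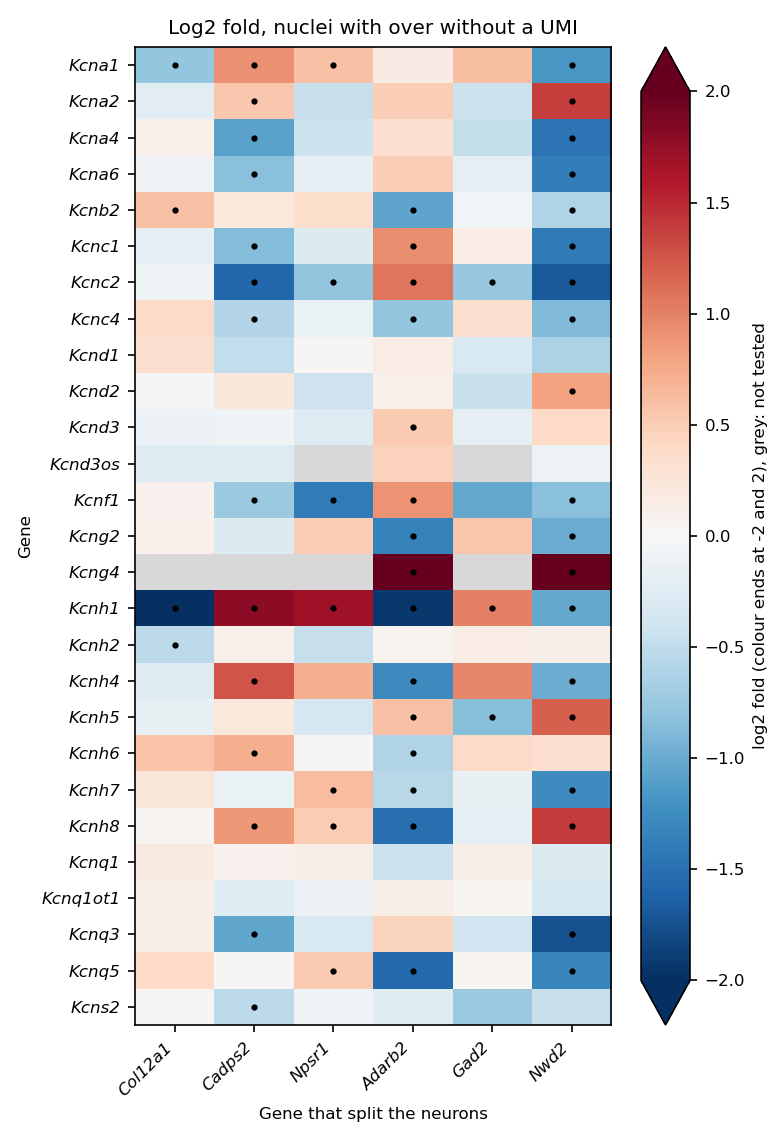
Log2 fold of 27 tested genes between neuron nuclei with and without a UMI of the gene named on the horizontal axis (red, higher in positive nuclei; blue, lower; grey, not tested), with a dot where the difference was called. Kcnh1 carried a dot in all 6 columns and Kcnc2 in 5 of them. The Kcng4 colours rest on a near-zero side.

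The Nwd2 split, with 1170 positive nuclei, moved most members: 7 of 31 were called higher (15.0% of all genes) and 15 lower (16.3%), with a median log2 fold of -0.61 over the members and 0.03 over all genes tested. Kcng4, a silent subunit that joins Kv2 channels, was at 8.13 to 80.2 CPM in positive nuclei (median 34.3) and at 0 to 0.90 CPM in negative nuclei. The sides did not overlap. Kcng4 passed the low-count filter through the positive side alone and was at 0 in 3 of 10 negative sums, so its call is no support and no fold is given. The 7 members called higher include Kcng4. Its spread among positive nuclei was wide, from 8.13 CPM in library 4 to 80.2 CPM in library 2. Kcnh8 was at 123 to 303 CPM against 56.7 to 118 CPM (log2 fold 1.40, SE 0.09, adjusted p = 5.69e-11). Kcna2 was at 67.5 to 144 CPM against 31.1 to 47.0 CPM (log2 fold 1.38, SE 0.09, adjusted p = 1.42e-10). Kcnh5 was at 185 to 297 CPM against 99.4 to 133 CPM (log2 fold 1.20, SE 0.08, adjusted p = 2.01e-10). Each of these 3 was higher in 10 of 10 libraries without overlap, and Kcnd2 was also called higher.

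On the lower side of the Nwd2 split, the M-current gene Kcnq3 was at 146 to 713 CPM in positive nuclei (median 339) and at 889 to 1572 CPM in negative nuclei (median 1019), again without overlap. Its log2 fold was -1.74 (SE 0.14, adjusted p = 4.17e-09). Kcnc2 fell by 1.67 (SE 0.15, adjusted p = 2.24e-08), the A-type Kv1 gene Kcna4 by 1.47 (SE 0.16, adjusted p = 2.01e-07) and the fast-firing Kv3 gene Kcnc1 by 1.42 (SE 0.15, adjusted p = 1.80e-07). Kcna1 was lower by 1.16 (SE 0.17, adjusted p = 1.49e-05), at 0 to 17.5 CPM against 14.2 to 25.8 CPM. Positive nuclei were shallower, with a median of 7808 UMIs against 11728, and their summed neuronal markers (9793 to 13555 CPM) lay below those of negative nuclei (14668 to 20278 CPM). The part of either in these folds was not tested. Without thinning, where a nucleus counts as positive with any Nwd2 UMI, the folds were smaller: Kcnq3 was at -0.60 and Kcna4 at -0.54, and Kcnc2 (-0.46), Kcnc1 (-0.44) and Kcna1 (-0.20) were not called. When Nwd2-positive nuclei with another marker, 77.9% of them, were left out and the rest set against nuclei with none of the 6, Kcnq3 at -0.66 and Kcnc2 at -0.60 kept their calls. Kcng4 was too low to be tested in that comparison, and Kcnh8 and Kcnh5 were not called at 0.24 and 0.23. Calls were also lost there for Kcna2 (0.49), Kcna4 (-0.50), Kcnc1 (-0.14) and Kcna1 (0.03).

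The Adarb2 split, with 2209 positive nuclei, had 7 of 31 members called higher (7.01% of all genes) and 9 lower (9.55%). The 7 include Kcng4, whose call is not used as support. Kcnc2 was at 1411 to 2080 CPM in positive nuclei (median 1720) and at 554 to 1167 CPM in negative nuclei (median 810). The sides did not overlap, and the log2 fold was 1.08 (SE 0.05, adjusted p = 1.94e-16). Kcnc1, which often assembles with Kcnc2, was at 104 to 145 CPM against 59.7 to 81.8 CPM (log2 fold 0.93, SE 0.05, adjusted p = 2.61e-14). The silent subunit gene Kcnf1 was higher by 0.90 (SE 0.14, adjusted p = 7.67e-06). Kcng4 passed the filter in this split and the Nwd2 split only and is given by its levels, which ran from 0 to 47.5 CPM in positive nuclei and from 0.34 to 8.87 CPM in negative nuclei, with library 5 highest on both sides, and 24.7% of Nwd2-positive nuclei were Adarb2-positive.

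Among the members lower with Adarb2, Kcnq5 was at 219 to 578 CPM in positive nuclei (median 314) and at 806 to 1477 CPM in negative nuclei (median 1003). The log2 fold was -1.55 (SE 0.05, adjusted p = 1.51e-19), and the sides did not overlap. Kcnh1 was at 5.07 to 15.9 CPM against 23.6 to 51.8 CPM (log2 fold -1.92, SE 0.11, adjusted p = 2.72e-14), also without overlap. Kcnh8 was lower by 1.51 (SE 0.13, adjusted p = 1.57e-10) and the silent subunit gene Kcng2 by 1.35 (SE 0.18, adjusted p = 7.13e-07). In nuclei positive for Adarb2 alone against none of the 6, Kcnc2 (0.98), Kcnc1 (0.96), Kcnq5 (-1.78) and Kcnh1 (-2.34) kept their calls.

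**Figure D4:**
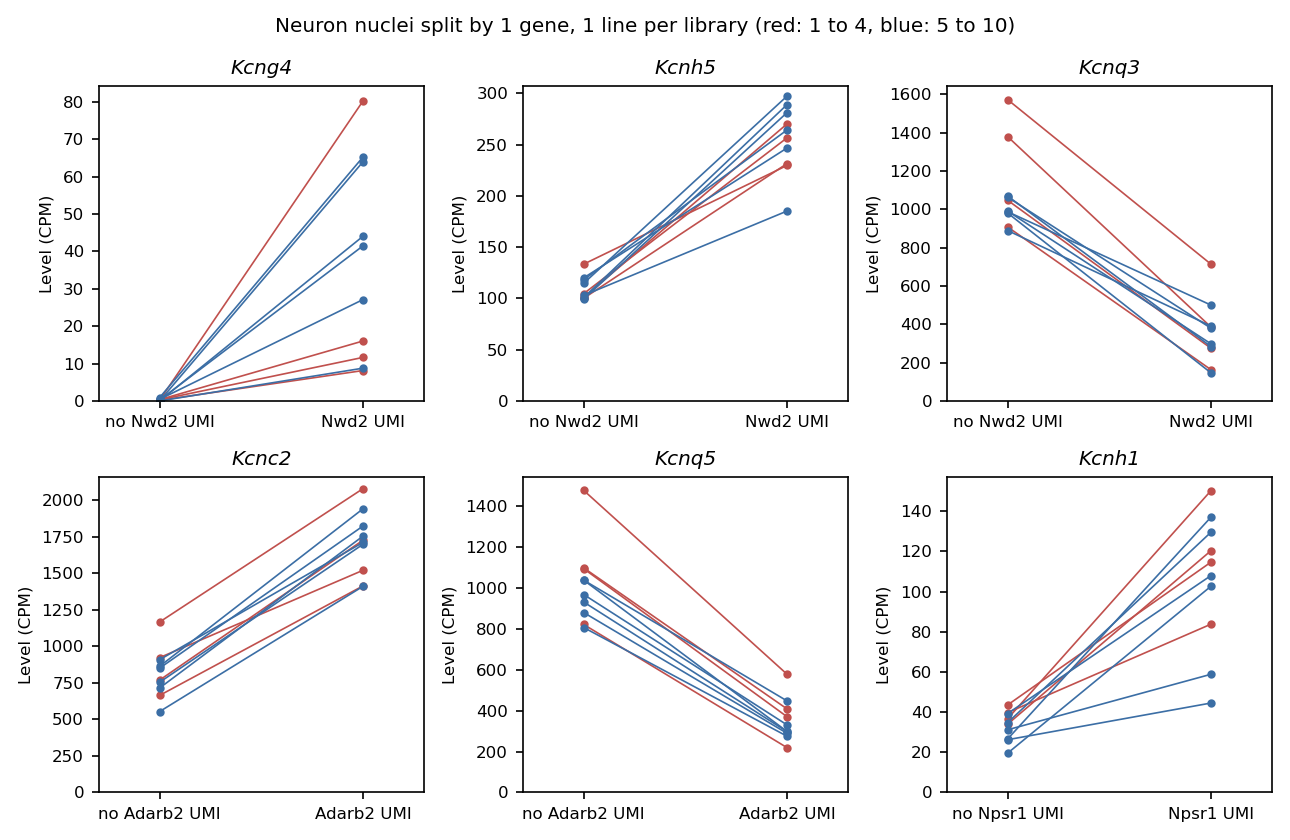
Level in CPM of 6 genes in neuron nuclei without and with a UMI of Nwd2, Adarb2 or Npsr1, 1 line per library (red, libraries 1 to 4; blue, libraries 5 to 10). All 10 lines of each panel ran the same way, upward for Kcng4, Kcnh5, Kcnc2 and Kcnh1 and downward for Kcnq3 and Kcnq5.

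The Cadps2 split, with 2275 positive nuclei, had 6 of 30 members called higher (10.4% of all genes) and 10 lower (8.94%). Kcnh1 was at 35.9 to 124 CPM in positive nuclei (median 75.7) and at 12.1 to 32.0 CPM in negative nuclei, without overlap, and its log2 fold was 1.80 (SE 0.15, adjusted p = 3.88e-08). Kcnh4, an Elk gene, was higher by 1.26 (SE 0.21, adjusted p = 0.000131), Kcna1 by 0.91 (SE 0.17, adjusted p = 0.000499) and Kcnh8 by 0.87 (SE 0.11, adjusted p = 1.04e-05). Kcnc2 was at 197 to 718 CPM against 1072 to 1506 CPM (log2 fold -1.57, SE 0.11, adjusted p = 6.28e-09). Kcna4 and Kcnq3 were lower by 1.06 and 1.04, respectively. Because many of these nuclei were Nwd2-positive, nuclei positive for Cadps2 alone were also compared with nuclei positive for none: Kcna1 rose by 1.57, Kcnh4 by 1.73 and Kcnh1 by 2.01, while Kcnh8 (-0.03) and Kcnq3 (-0.45) were not called.

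The Npsr1 split had 362 positive nuclei, of which 51.4% were Cadps2-positive. It gave 5 of 29 members called higher (3.82% of all genes) and 2 lower (6.30%). Kcnh1 was at 44.5 to 150 CPM in positive nuclei (median 111) and at 19.6 to 43.6 CPM in negative nuclei, without overlap, with a log2 fold of 1.70 (SE 0.11, adjusted p = 6.66e-25). Kcnh7 and Kcnq5 rose by 0.61 (SE 0.06, adjusted p = 3.80e-14) and 0.53 (SE 0.07, adjusted p = 1.64e-10), and Kcna1 by 0.58 (SE 0.18, adjusted p = 0.0119). Kcnc2 fell by 0.79 (SE 0.07, adjusted p = 1.46e-17) and Kcnf1 by 1.40 (SE 0.42, adjusted p = 0.00947). Levels of Kcnf1 were low and overlapped, at 0 to 16.8 CPM in positive nuclei and 2.1 to 11.2 CPM in negative nuclei. The Kcnf1 call was lost without library 3 (-1.33), with DESeq2, without the library block and in libraries 5 to 10 alone, that of Kcna1 without library 4 (0.62) or 10 (0.50) or the block (0.66), and that of Kcnq5 without library 1 (0.48), 7 (0.49) or 9 (0.48). In nuclei positive for Npsr1 alone, which gave sums in 6 libraries, Kcnh1 kept its call at 1.49, while Kcnc2 (-0.48), Kcnh7 (0.37), Kcnq5 (0.02) and Kcna1 (-0.08) were not called.

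The Col12a1 split, with 763 positive nuclei, had 1 of 30 members called higher (2.43% of all genes) and 3 lower (4.03%). Kcnb2 was at 858 to 1595 CPM in positive nuclei (median 1158) and at 652 to 1084 CPM in negative nuclei (median 742). The ranges overlapped, but Kcnb2 was higher in 10 of 10 libraries, with a log2 fold of 0.59 (SE 0.05, adjusted p = 9.15e-12). Kcnh1 was lower by 2.00 (SE 0.15, adjusted p = 2.37e-14), Kcna1 by 0.77 (SE 0.16, adjusted p = 0.000442) and the Erg gene Kcnh2 by 0.52 (SE 0.16, adjusted p = 0.0175). The Kcnh2 call was lost without library 4 (-0.46), 5 (-0.49) or 9 (-0.46), with DESeq2, without the library block and without thinning (-0.36). In nuclei positive for Col12a1 alone Kcnb2 (0.45) and Kcna1 (-0.45) were not called, and Kcnh1 was at -1.77. The Gad2 split, with 247 positive nuclei and sums in 8 libraries, had 1 of 29 members called higher (1.60% of all genes) and 2 lower (2.15%). Kcnh1 rose by 1.01 (SE 0.16, adjusted p = 5.93e-05), Kcnh5 fell by 0.85 (SE 0.14, adjusted p = 9.12e-05) and Kcnc2 fell by 0.76 (SE 0.11, adjusted p = 7.11e-06). Without thinning Kcnh5 was at -0.34 and Kcnc2 at -0.26, and neither was called. Kcnh5 was at 25.4 to 99.0 CPM in Gad2-positive nuclei and at 115 to 155 CPM in negative nuclei. In nuclei positive for Gad2 alone, which gave sums in 5 libraries, Kcnh1 was at 0.82, Kcnc2 at -0.41 and Kcnh5 at -0.38, and none was called.

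The same genes were then read in the 8 neuron clusters of the authors, as a description. Kcng4 was at 52.5 CPM ± 32.7 (SD, n = 10) in cluster 6, which held 71.2% of the Nwd2-positive nuclei, and at no more than 0.79 CPM on average in the other 7. Kcnh1 was highest in cluster 4 (130 CPM ± 31.8), then in clusters 5 (90.6 CPM ± 19.97) and 2 (71.9 CPM ± 21.8), and at 1.98 CPM ± 1.76 in cluster 3. Kcnc2 was at 2762 CPM ± 301 in cluster 3 and at 107 CPM ± 58.4 in cluster 6. Kcnq5 was at 1582 CPM ± 319 in cluster 4 and at 147 CPM ± 74.3 in cluster 3. Kcna1 was at 53.1 CPM ± 19.2 in cluster 4 and 28.9 CPM ± 6.69 in cluster 3, above 2.57 CPM ± 2.13 in cluster 6, and clusters 1, 2, 5, 7 and 8 lay between 12.0 and 19.7 CPM on average, with SDs of 2.59 to 13.0 CPM.

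**Figure D5:**
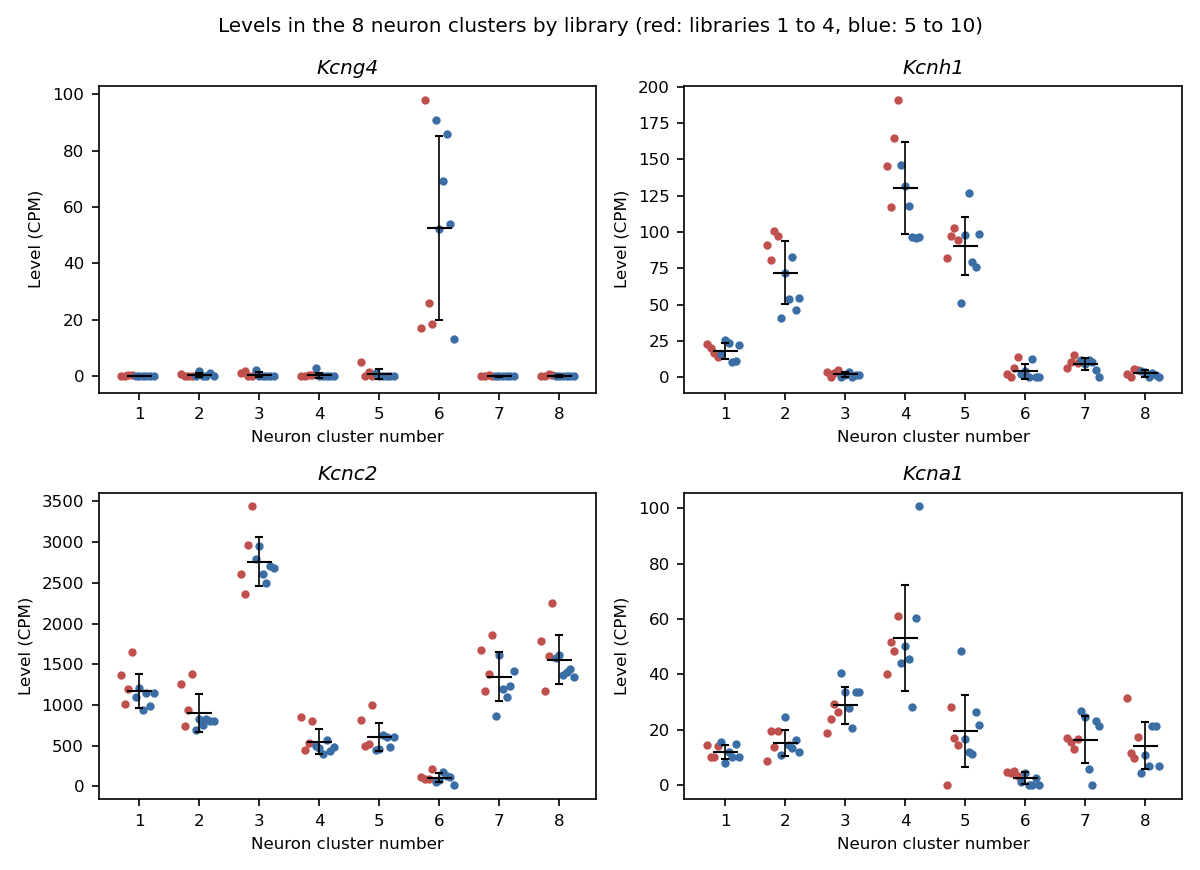
Level in CPM of 4 channel genes in the 8 neuron clusters of the authors, 1 point per library (red, libraries 1 to 4; blue, libraries 5 to 10), with bars at the mean and 1 SD. Kcng4 was at 52.5 CPM on average in cluster 6 and at 0.79 CPM or less in the others, and Kcnc2 was at 2762 CPM in cluster 3.

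Genes whose products join these channels were read from lists chosen by function. Of 10 Kv1 partners, 7 were tested between cell types. In neurons, where 29.7% of all genes were called higher, all 7 were called higher. In oligodendrocytes, where 20.8% of all genes were called higher and 26.0% lower, 4 of the same 7 were called higher and 1 lower. Cntn2, a juxtaparanodal adhesion molecule, was at 544 CPM ± 70.6 (SD, n = 10) in oligodendrocytes with a log2 fold of 5.35 (SE 0.12, adjusted p = 3.13e-51). Lgi3, a secreted ligand of the Adam22 family of receptors, was at 334 CPM ± 38.6 (SD, n = 10) with a log2 fold of 4.93 (SE 0.12, adjusted p = 2.51e-49). Kcnab1, a Kv1 beta subunit gene, followed at 1.88 (SE 0.18, adjusted p = 6.11e-15).

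Of 6 Kv4 partners, 5 were tested between cell types. In neurons Kcnip4, Kcnip1, Dpp10 and Dpp6 were called higher, and in OPCs Kcnip3, Dpp10, Kcnip1 and Dpp6 were higher and Kcnip4 lower. Kcnip3, a calcium-binding Kv4 partner, was at 955 CPM ± 370 (SD, n = 9) in OPCs, with a log2 fold of 4.01 (SE 0.13, adjusted p = 8.78e-41), and its value in neurons was -0.12 and not called. In the Nwd2 split, where 15.0% of all genes were called higher and 16.3% lower, 4 of 6 Kv4 partners were called higher and 2 lower, led by Kcnip1 at 1.76 (SE 0.08, adjusted p = 6.22e-13) and Kcnip4 at -1.82 (SE 0.14, adjusted p = 1.32e-09). In the Adarb2 split 7.01% of all genes were called higher and 9.55% lower. Of 6 Kv4 partners, Kcnip3 and Kcnip4 were called higher there and Kcnip1 and Kcnip2 lower. Of 9 Kv1 partners tested, 4 were called higher and 1, Lgi2, lower. Kcnip3 rose by 1.89 (SE 0.07, adjusted p = 7.54e-19) and the Kv1 partner Kcnab1 by 1.14 (SE 0.05, adjusted p = 1.43e-17).

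Of 9 Kv7 partners 4 were tested between cell types, and Ank3, the ankyrin that anchors Kv7 channels at the axon initial segment, was called higher in neurons at 2.25, in oligodendrocytes at 2.60 and in OPCs at 1.31. None of the 9 was called in the Col12a1, Cadps2, Npsr1, Adarb2 or Gad2 split, where 4 were tested. Of 3 Kv2 partners, 2 were tested between cell types, and the 1 call was Vapb higher in endothelial cells.

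The 8 members tested in no split were Kcna3, Kcna5, Kcng1, Kcng3, Kcnh3, Kcns1, Kcns3 and Kcnv2. Apart from Kcnh3 and Kcns3, their highest mean level in any cell type was low: 2.58 CPM for Kcng1 in neurons, 1.98 CPM for Kcna5 in endothelial cells, 1.66 CPM for Kcna3 in neurons, 1.5 CPM for Kcng3 in oligodendrocytes, 0.86 CPM for Kcns1 in oligodendrocytes and 0.63 CPM for Kcnv2 in neurons. At this depth no difference of these 6 between cells could be read.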

How the data were processed

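Single nuclei were captured with 10x 3′ v3 chemistry, and the authors deposited a matrix of UMI counts for nuclei that passed their filters, with metadata and cluster names. Per the submitters' processing notes, reads were counted with Cell Ranger 6.1.1 on mm10, while the study's methods name another release. The authors removed nuclei with few genes or a high percent of mitochondrial counts, and clusters of doublets. No doublet caller was run here. The deposited percent of mitochondrial counts was used as a description only, and 22 per-sample metadata columns were not used. In all, 46 barcodes occurred in more than 1 library.

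UMI counts were summed per library and cell type or split side, with at least 10 nuclei in a sum. The 13 mitochondrial genes were left out. Genes were filtered with filterByExpr, scaled by TMM and tested with edgeR 4.0.16 (quasi-likelihood, library as a block, R 4.3.3), and p-values were adjusted by Benjamini-Hochberg over all genes tested. The library block pairs sums of the same library. The scripts were tested on simulated data. Alternatives included DESeq2 1.42.0, RLE scaling, other filters and thinning, and each library left out. Libraries were taken as replicates, so p-values measure only how a difference within libraries spreads between these pools. Named genes were, in each direction, the 3 called members of a cell type and the 4 called members of a split with the largest absolute log2 fold, together with Kcna1 and Kcnq1ot1. Other members were named after their values were seen, and results of some genes are not reported here. Members and gene lists were chosen with earlier results of these data known. Promoters came from RefSeq (GRCm38.p6), and 25 of 39 members had an entry.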

Additional observations from a re-analysis of the deposited data

Results flagged for a closer look

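Within a set of libraries, 14 values lay far from the others by Dixon's test, among 158 groups of 4 to 6 libraries, and chance gives about 1 in 20. Outside neurons these were Kcnd2 in astrocytes (library 9 lowest at 2722 CPM) and Kcna1 in endothelial cells (library 9 at 10.6 CPM, the other 3 at 0). Kcnq1ot1 in ependymal cells (library 7 at 812 CPM) and Kcnh1 in microglia (library 7 at 4.26 CPM, the other 5 at 0) were also among them. The last was Kcnd3 in oligodendrocytes (library 9 at 41.5 CPM). The endothelial Kcna1 and microglial Kcnh1 values are 1 UMI each, under the floor of 3 UMIs, so a single molecule set them apart. In Cadps2-positive neurons library 5 was highest for Kcnh8 (241 CPM) and lowest for Kcnq3 (217 CPM). In Npsr1-positive neurons library 10 was highest for Kcna1 (75.7 CPM). In Adarb2-positive neurons library 5 was highest for Kcng4 (47.5 CPM) and Kcnh8 (94.2 CPM), library 10 for Kcnq5 (448 CPM) and library 2 for Kcng2 (9.30 CPM). In Nwd2-positive neurons library 2 was highest for Kcng4 (80.2 CPM) and library 4 for Kcna4 (43.9 CPM).

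Of 180 tests of whether a split fold differed between libraries 5 to 10 and libraries 1 to 4, 2 had an adjusted p under 0.05, both with Adarb2. Kcnd3 had a log2 fold of 0.70 in libraries 5 to 10 and 0.30 in libraries 1 to 4, a difference of 0.43 (SE 0.08, adjusted p = 0.0129). Kcnq3 had 0.58 and 0.25, a difference of 0.36 (SE 0.08, adjusted p = 0.0455).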

How the results depend on the processing

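The count of members called higher in neurons was 19 of 20 tested. It was 34 of 39 with no filter on low counts and 11 of 12 with nuclei thinned to 1000 UMIs. Calls higher in the 7 other cell types numbered 18 with that thinning, where 12 members were tested, against 30 with 20 tested. Comparing nuclei positive for 1 marker only with nuclei positive for none gave 2 calls for Col12a1 (against 4), 9 for Cadps2 (16), 1 for Npsr1 (7), 0 for Gad2 (3) and 2 for Nwd2 (22). The 22 include Kcng4, which was too low to be tested in that comparison. In that comparison 3 named folds changed sign: Kcnh8 with Cadps2 (-0.03), Kcna1 with Npsr1 (-0.08) and Kcna1 with Nwd2 (0.03). The cause was not tested. Gad2 gave 9 calls with no filter on low counts, and Nwd2 gave 11 with no thinning. Without the replicate block, Npsr1 gave 4 calls, and 7 of 92 named values lost their call. Leaving out 1 library gave 19 to 20 members higher in neurons, 28 to 31 calls in the other types, 3 to 4 for Col12a1, 14 to 17 for Cadps2, 5 to 7 for Npsr1, 15 to 18 for Adarb2, 3 to 4 for Gad2 and 20 to 23 for Nwd2. The Gad2 split at 2 or more UMIs could not be fitted.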
